A study of Mus musculus with 8 samples.

Results

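The mitochondrial ribosomal protein genes (*Mrpl* and *Mrps* genes) were examined in the liver RNA-seq of *Ppara* V227A mice. Members were the genes whose symbol starts with Mrpl or Mrps followed by a digit and whose average level lay above the lowest value in the deposited table. All 78 genes with such a symbol qualified, of 27179 genes listed and 18937 above that lowest value. The libraries came from 4 wild-type mice and 4 mice homozygous for V227A, a germline substitution of valine by alanine in PPARɑ, the fatty acid-sensing nuclear receptor of the liver. All were adult male C57BL/6NHsd mice killed after a 6 h fast. The variant was base-edited into zygotes, and the line descends from 1 founder that was backcrossed and then bred through heterozygous crosses. The values used were the authors' averages over all 8 libraries of both genotypes. Levels per animal or per genotype were therefore not analysed here, and no difference between V227A and wild-type livers was tested for these genes.

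Mitochondria translate the few mRNAs of their own genome on a separate ribosome, the mitoribosome. Its rRNAs come from mitochondrial DNA, whereas all its proteins are encoded in the nucleus, made in the cytoplasm and imported. Some of these proteins descend from those of the bacterial ribosome, while others occur only in mitochondria. The proteins it makes are subunits of the respiratory chain and ATP synthase, on which the oxidation of fatty acids in fasted liver depends.

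By the position of the protein in the ribosome, 51 members belonged to the large subunit and 26 to the small subunit. The symbols split differently, with 49 *Mrpl* and 29 *Mrps* genes, since the proteins of *Mrps30* and *Mrps18a* sit in the large subunit. The remaining member, *Mrps36*, encodes a protein that is now known as a component of the 2-oxoglutarate dehydrogenase complex and not of the ribosome. Of the large-subunit members, 30 had a bacterial counterpart and 21 were specific to mitochondria. Of the small-subunit members, 16 had a bacterial counterpart and 10 did not. *Mrps18a* and *Mrps18b* were counted as specific to mitochondria, although both are related to bacterial S18.

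The members were expressed at moderate levels. Their median was 29.6 CPM (reads of a gene per 1000000 reads), with quartiles of 20.6 and 46.2, and the 90th percentile was 3.21 times the 10th. In 71 of the 78 genes the average lay between 10 and 100 CPM. Together they took 2790 CPM, or 0.279% of the reads. The mean effective library size behind these averages was 27473997 reads, so the median member was counted with a 95% counting error of 2.43% over the 8 libraries. Counting error is the only error that could be given, and it does not cover the spread between mice.

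Because a longer mRNA yields more reads at the same number of molecules, levels of different genes were compared per kilobase (kb) of exon. On this scale the median member stood at 18.9 CPM per kb, against 1.52 over all 17300 genes with reads and a length. Of the 78 members, 77 lay above that overall median and 28 lay above its 90th percentile of 26.8 CPM per kb. Large-subunit members had a median of 22.0 CPM per kb and small-subunit members one of 17.6, a ratio of 1.25. Per kb of coding sequence the ratio was 1.81. Within the large subunit, genes with a bacterial counterpart (22.4 CPM per kb) and mitochondria-specific genes (21.3) had similar medians. Within the small subunit the corresponding medians were 18.2 and 14.3 CPM per kb of exon, and 50.5 and 25.6 per kb of coding sequence. In the large subunit those per kb of coding sequence were 66.8 and 61.6. The quartiles of the large subunit, 13.8 and 43.5, overlapped those of the small subunit, 8.31 and 23.9. Genes are not replicates, and no test was made of these ratios.

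**Figure D1:**
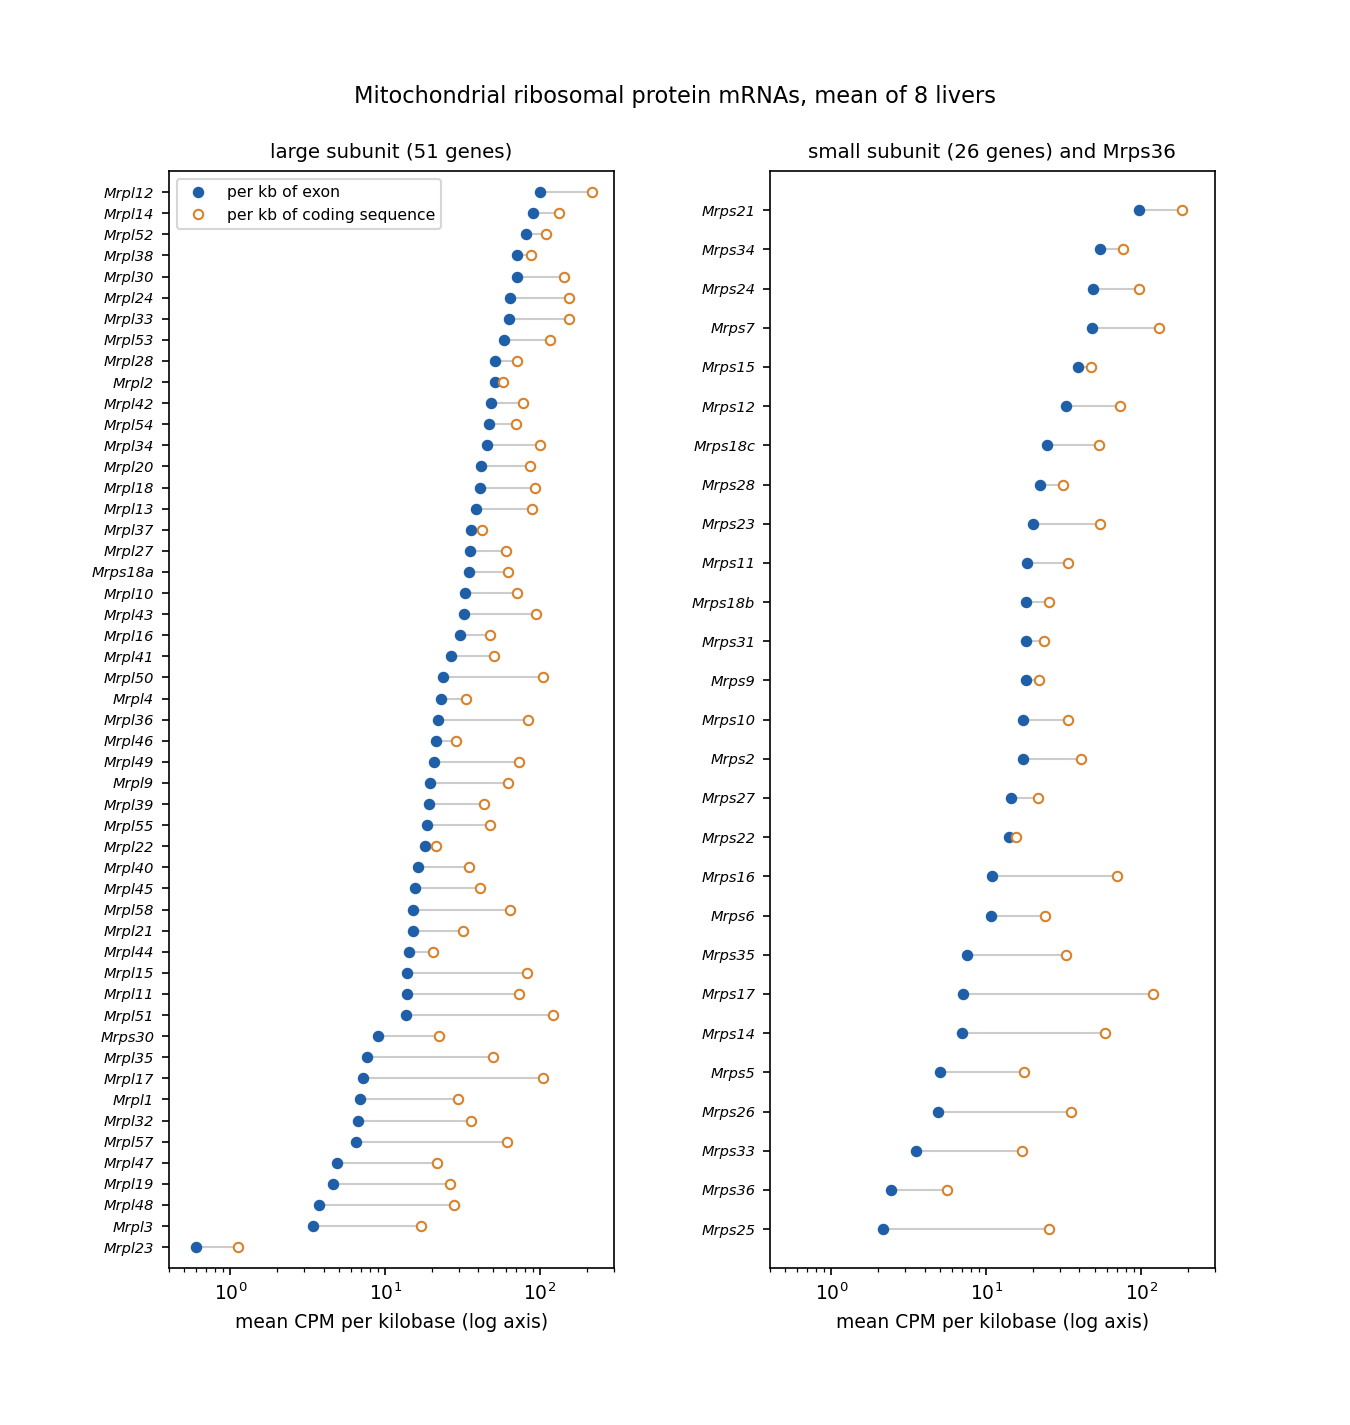
Average level of each of the 78 members over 8 libraries, in CPM per kb of exon (filled points) and per kb of coding sequence (open points) on a log axis, with large-subunit genes on the left and small-subunit genes and *Mrps36* on the right. *Mrpl12* and *Mrps21* led at 99.4 and 97.0 CPM per kb of exon, and *Mrpl23* was lowest at 0.600.

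The large-subunit gene highest per kb was *Mrpl12* (ENSMUSG00000039640, chr11:120484613-120489065, GRCm38), at 99.4 CPM per kb. Its protein is a counterpart of the bacterial stalk protein L7/L12, which recruits translation factors and is present in several copies per ribosome. *Mrpl12* also had the highest average of all members, 131 CPM, with a 95% counting interval of 129 to 132. *Mrpl14*, the counterpart of bacterial L14, followed at 90.0 CPM per kb. The mitochondria-specific genes *Mrpl52* and *Mrpl38* stood at 81.0 and 71.1 CPM per kb, and *Mrpl30*, whose protein corresponds to bacterial L30, stood at 70.4. In the small subunit *Mrps21* (ENSMUSG00000054312, chr3:95862634-95871519) led at 97.0 CPM per kb, well apart from the next genes. *Mrps34*, a mitochondria-specific gene, stood at 54.6 CPM per kb. *Mrps24*, *Mrps7* and *Mrps15*, the counterparts of bacterial S3, S7 and S15, stood at 48.6, 48.1 and 39.1.

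At the other end, *Mrpl23* (ENSMUSG00000037772, chr7:142532686-142540747) had 0.580 CPM, with a 95% counting interval of 0.483 to 0.690, and 0.600 CPM per kb. This corresponds to 15.9 reads per library, the fewest of any member. L23 is a core protein at the exit of the peptide tunnel. The next large-subunit genes from the bottom were *Mrpl3* (3.40 CPM per kb), *Mrpl48* (3.74), *Mrpl19* (4.60) and *Mrpl47* (4.88), all above *Mrpl23* by far more than counting error. In the small subunit the lowest were *Mrps25* (2.16 CPM per kb), *Mrps33* (3.51), *Mrps26* (4.91), *Mrps5* (5.06) and *Mrps14* (6.93). *Mrps5* encodes the counterpart of bacterial S5, a protein at the mRNA entry, and *Mrps14* that of S14. *Mrps36* had 1.71 CPM and 2.44 CPM per kb, so the single member whose protein is not part of the ribosome ranked 76 of 78.

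The *Mrps18* genes are paralogues of bacterial S18 whose proteins occupy different places in the ribosome. *Mrps18a*, of the large subunit, stood at 34.9 CPM per kb. *Mrps18c*, the small-subunit protein at the place of bacterial S18, stood at 24.5, and *Mrps18b*, elsewhere in the small subunit, at 18.1. Their averages of 36.2, 23.1 and 19.5 CPM followed the same order, with counting intervals that did not overlap. Part of *Mrps18b* and *Mrps18c* is shared with other genes, as described further on, so the order of these genes is uncertain.

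How a member ranked depended on which length was used. In 48 of 78 members more than 50% of the exon length was untranslated, and Spearman's rho between the levels per kb of exon and per kb of coding sequence was 0.69 across the 78 genes. Both scales divide the same average by a length, and genes are not independent replicates. The 10 highest genes on the 2 scales had 7 in common, namely *Mrpl12*, *Mrpl14*, *Mrpl24*, *Mrpl30*, *Mrpl33*, *Mrpl53* and *Mrps21*, while the 10 lowest had 6 in common. *Mrpl51*, *Mrps17* and *Mrpl17*, picked after their values were seen, moved furthest. *Mrpl51* ranked 57 per kb of exon and 8 per kb of coding sequence, *Mrps17* ranked 64 and 9, and *Mrpl17* ranked 63 and 13. *Mrps17* has an annotated exon length of 6003 bases around a coding length of 360. Average CPM itself showed little relation to length across the 78 genes, with a rho of 0.01 for exon length and 0.10 for coding length. The level per kb of exon therefore fell with exon length (rho of -0.67), and the level per kb of coding sequence with coding length (rho of -0.47). The order of the members per kb thus partly follows the lengths by which their levels are divided.

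The 5 mitoribosome proteins that carry other symbols lay in the range of the members, with a median of 14.5 CPM per kb. *Chchd1* was highest at 57.8, and *Dap3*, which encodes a GTP-binding protein of the small subunit, was lowest at 9.59. Proteins that build or serve the ribosome stood lower. The 22 assembly factors had a median of 6.00 CPM per kb, from 0.638 for the rRNA methyltransferase gene *Mettl15* to 34.7 for *Rbfa*, a small-subunit maturation factor. The 11 translation factors had a median of 7.29, from 1.87 for the release factor gene *Mtrf1l* to 15.3 for the elongation factor gene *Gfm1*. The 17 mitochondrial aminoacyl-tRNA synthetases, which charge tRNAs with their amino acids, had a median of 6.34. Among them *Lars2*, the leucyl enzyme, stood apart at 158 CPM per kb and 615 CPM, while *Mars2*, the methionyl enzyme, was lowest at 0.0992 CPM per kb. The search for sequence shared with other genes, described further on, did not cover the genes of these lists, *Lars2* included.

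**Figure D2:**
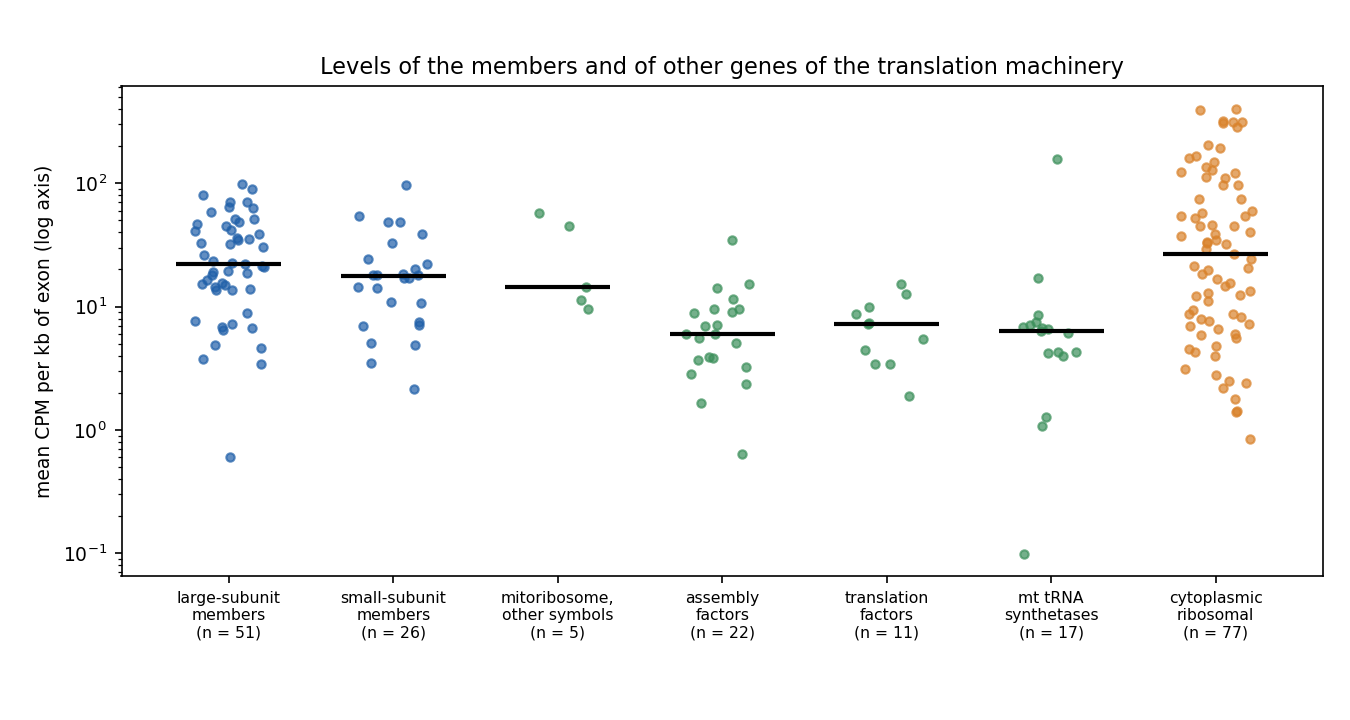
Average level per kb of exon on a log axis for each gene of the large and small mitoribosomal subunits, the mitoribosome proteins under other symbols, assembly factors, translation factors, mitochondrial aminoacyl-tRNA synthetases and cytoplasmic ribosomal proteins, with the number of genes under each name and the median as a bar. The members' medians of 22.0 and 17.6 lie above those of the assembly factors, translation factors and synthetases (6.00, 7.29 and 6.34), and the cytoplasmic genes spread most.

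The cytoplasmic ribosomal protein genes, here the 77 *Rpl* and *Rps* genes without pseudogene or like symbols, gave a median of 26.8 CPM per kb, 1.42 times that of the members. This ratio was not stable. It was 0.966 when pseudogene and like symbols were kept, and 5.32 when only genes with little sequence in common with other genes were taken. The cytoplasmic genes were also far less even. The 90th percentile of their levels per kb was 66.5 times the 10th, against 12.3 times in the members. Of the 77 genes, 18 lay above the highest member and 25 lay below the members' lower quartile of 10.7 CPM per kb.

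Sequence held in common with other genes accompanied these differences. For each gene the share of 50-base stretches of its mRNAs that also occur, on either strand, in a transcript of a gene elsewhere in the genome was computed, since reads from such stretches may not be assigned to a single gene. Over the members the median share was 0.0353%, with no shared stretch in 39 genes, over 10% in 13 and over 50% in 1. Over the cytoplasmic genes the median was 35.9%, with over 10% in 71 of 77 and over 50% in 25. The 6 cytoplasmic genes at 10% or less had a median of 103 CPM per kb, and the other 71 had one of 24.5. The 2 sets overlapped widely, with ranges of 5.89 to 391 and 0.841 to 403 CPM per kb. In the members the medians were 19.3 CPM per kb for the 65 genes at 10% or less and 18.1 for the 13 above. In average CPM these medians lay further apart, at 35.5 and 20.3, with overlapping ranges of 9.03 to 131 and 0.580 to 47.7. The part of shared sequence in these levels was not tested.

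**Figure D3:**
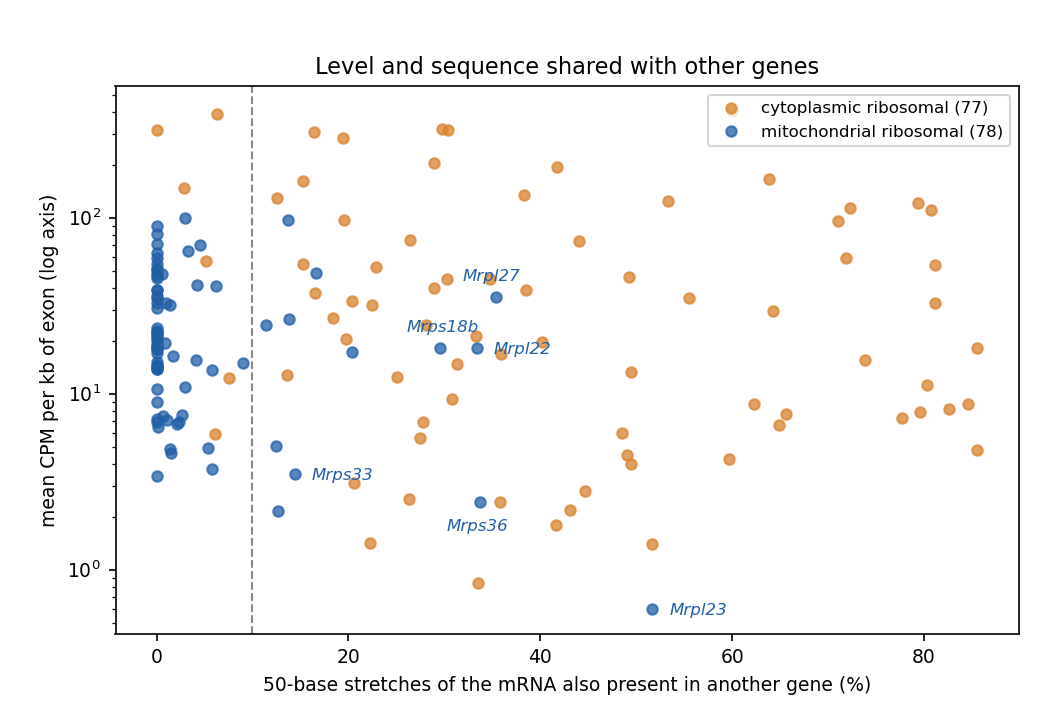
Average level in CPM per kb of exon (log axis) against the percentage of 50-base stretches of a gene's mRNAs that also occur in a gene elsewhere, for 78 mitochondrial and 77 cytoplasmic ribosomal protein genes, with the dashed line at 10%. Most members sit at or near 0%, and *Mrpl23*, the lowest member, is the one furthest to the right at 51.7%.

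*Mrpl23*, the lowest member, had the largest share, 51.7%, all of it in common with the pseudogene *Mrpl23-ps1*. *Mrps36*, which shared most with *Mrps36-ps1*, stood at 33.7%. Of the lowest small-subunit genes per kb, *Mrps33*, *Mrps25* and *Mrps5* stood at 14.5%, 12.7% and 12.4%. *Mrps26* and *Mrps14* stood at 5.37% and 2.38%. A large share did not always go with a low level, since *Mrpl27* (35.4%) and *Mrps21* (13.7%) stood at 35.3 and 97.0 CPM per kb. Overlapping genes are a further uncertainty. All of the exon length of *Mrpl53* overlapped another annotated gene on the same strand, as did 36.1% of *Mrps6*, 22.4% of *Mrpl33* and 18.5% of *Mrps18c*. Another 12 members overlapped a gene on the opposite strand by more than 10% of their exon length, led by *Mrps18b* at 59.1%. Among them were *Mrps25*, the lowest small-subunit gene per kb, at 58.2%, and *Mrpl12*, the highest member, at 15.2%. The libraries were stranded, but whether strand was used in counting is not given in the sources used here.

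The mRNAs that the mitoribosome translates also fell into high and low values. *Cox1* (COX1 in the table), which encodes a core subunit of cytochrome c oxidase, reached 8996 CPM per kb and *Cytb*, of complex III, 11354. Those of *Nd1*, *Nd2*, *Nd4*, *Nd5* and *Nd6*, subunits of complex I, lay between 1405 and 5269. In contrast, COX2, COX3, ATP6, ND3 and ND4L lay between 0.548 and 6.20 CPM per kb, and between 98.0 and 100% of their 50-base stretches also occurred in other genes. COX1 and ND4, at 8996 and 4278 CPM per kb, also shared 51.1% and 62.2% of theirs, so a large share did not always go with a low value. ATP8 was low, at 1.84 CPM per kb, with no stretch shared elsewhere and 21.1% of its exon length overlapping another gene on the same strand. The part of shared sequence in these values was not tested.

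The tissue was checked against marker genes. The 8 hepatocyte markers lay between 813 CPM (*Hnf4a*) and 69579 CPM (*Alb*). Markers of other liver cells were present at lower averages, with 4.01 to 81.9 CPM for Kupffer cells, 10.7 to 44.2 for endothelial cells, 2.40 to 99.6 for stellate cells and 1.24 to 4.85 for cholangiocytes. In whole liver, more cells of a type and more RNA per cell cannot be told apart, and all of these cell types contain mitochondria.

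Genes for mitochondrial proteins are known targets of NRF1, of the ETS-family factor GABP (also known as NRF2) and of YY1, so their short motifs were sought in the members' promoters. RefSeq promoters (GRCm38.p6), from 250 bases before to 50 after the transcription start, were matched for 69 of the 78 members, giving 75 promoters. *Mrps28*, *Mrpl13*, *Mrpl38*, *Mrps35*, *Mrpl15*, *Mrps34*, *Mrpl54*, *Mrpl19* and *Mrpl4* had no entry. The motifs were GCGC and TGCGC with any 1 base between them for NRF1, CCGGAAG for ETS factors and AAGATGG for YY1, on either strand. The following promoters show each of them, and 1 promoter without a match in the stretch shown. Each is given 5′ to 3′ on the strand of the gene for the 120 bases before the start, with matches in capitals. *Mrpl45* (chr11:97315596-97315715, plus strand) was the member with most NRF1 matches, *Mrpl52* (chr14:54426789-54426908, plus strand) was among the highest genes per kb and *Mrps22* (chr9:98601680-98601799, minus strand) had an ETS match next to the start. *Mrps12* (chr7:28741822-28741941, minus strand) shares its upstream region with *Sars2*, which points the other way.
Mrpl45: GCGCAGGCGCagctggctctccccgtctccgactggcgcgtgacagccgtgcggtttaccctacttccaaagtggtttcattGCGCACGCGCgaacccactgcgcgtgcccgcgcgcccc
Mrpl52: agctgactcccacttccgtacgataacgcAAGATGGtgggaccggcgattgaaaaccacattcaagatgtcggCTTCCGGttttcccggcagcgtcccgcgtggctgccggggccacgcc
Mrps22: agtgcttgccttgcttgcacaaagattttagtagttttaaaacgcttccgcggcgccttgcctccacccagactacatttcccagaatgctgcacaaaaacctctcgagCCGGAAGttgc
Mrps12: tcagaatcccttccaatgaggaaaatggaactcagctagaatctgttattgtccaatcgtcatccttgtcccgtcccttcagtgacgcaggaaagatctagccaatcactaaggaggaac

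*Mrpl45* held 3 NRF1 matches in its 300 bases, at 115.5 and 33.5 bases before the start and at 19.5 bases after it, measured to the centre of the match. *Mrpl52* held 2 ETS matches and 1 YY1 match. *Mrps12* held an ETS match centred 4 bases after the start and a YY1 match 195 bases before it. Both lie outside the stretch shown and enter the counts below. A match describes the letters in the window and does not show that a factor binds there.

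The NRF1 motif occurred in 13 of 75 member promoters (17.3%), against 4.60% of all 32851 promoters, 10.9% of promoters of genes at 10 CPM or more and 7.46% of cytoplasmic ribosomal protein promoters. The ETS motif occurred in 26 (34.7%), against 8.86%, 19.4% and 37.3% in the same sets. The YY1 motif occurred in 13 (17.3%), against 6.34%, 7.89% and 16.4%. At least 1 of these motifs was present in 57.3% of member promoters and in 33.2% of those of genes at 10 CPM or more. In cytoplasmic ribosomal protein promoters the share was 55.2%, close to that of the members. The ETS and YY1 shares thus lay close to those of the cytoplasmic ribosomal protein genes, and the NRF1 share lay above them. TATAAA was found in 6.67% of member promoters, against 13.6% of all promoters, 7.46% of those of genes at 10 CPM or more and 8.96% of cytoplasmic ribosomal protein promoters. The median ratio of observed to expected CpG was 0.820, against 0.384 in all promoters and 0.774 in genes at 10 CPM or more. It was higher, at 0.877, in cytoplasmic ribosomal protein promoters. These shares are descriptions, with no test of the differences.

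**Figure D4:**
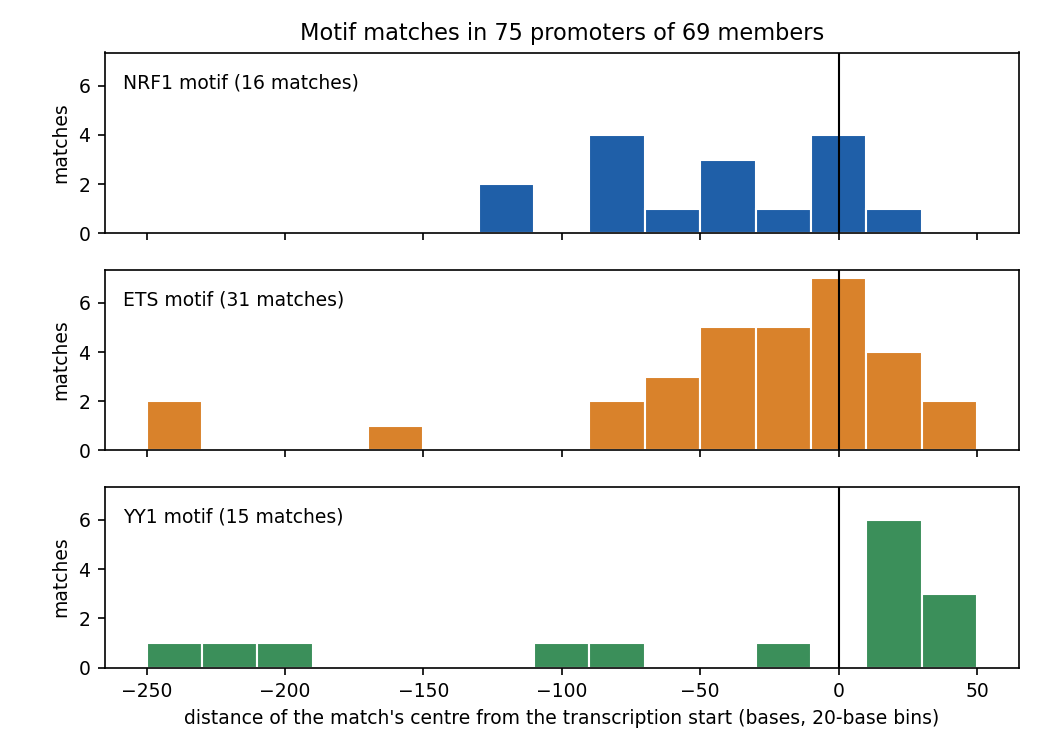
Number of NRF1, ETS and YY1 motif matches in 75 member promoters by distance from the transcription start, in 20-base bins from 250 bases before to 50 bases after it. Positions before the start are negative. ETS matches have a median of -14 bases (quartiles -51 and 4.5) and NRF1 matches one of -39 (quartiles -79.5 and 0.25). YY1 matches have a median of 17 bases but spread widely, with quartiles of -95.5 and 27.5.

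ETS matches lay around the start, with a median position of 14 bases before it, and NRF1 matches at a median of 39 bases before it. Those of YY1 had a median of 17 bases after it, but spread widely, with quartiles at -95.5 and 27.5 bases from the start. Levels differed little by ETS or NRF1 motif on the per kb scale. The 13 genes with an NRF1 match had a median of 18.0 CPM per kb and the 56 without one had 18.5. The 26 genes with an ETS match and the 43 without one had 18.1 and 18.7. The 13 genes with a YY1 match had a median of 32.7 CPM per kb, and the 56 without one had 18.0. In average CPM the medians with and without a match were 32.8 and 28.4 for YY1, 43.9 and 28.5 for NRF1 and 27.8 and 32.8 for ETS. Genes with a YY1 match thus had the higher median on both scales, and those with an NRF1 match only in average CPM. The quartiles in average CPM with a YY1 match, 26.9 and 39.8, lay within those without one, 20.4 and 44.1. No test was made of these differences.

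Members often lay head to head with another gene. In 18 of 78 members (23.1%) another protein-coding gene started within 1000 bases on the opposite strand and pointed away, against 8.81% of the 15909 protein-coding genes with reads, 11.0% of those at 10 CPM or more and 10.4% of the cytoplasmic ribosomal protein genes. Starts were here the outermost gene ends in GENCODE vM21, and pairs that overlapped at their starts were not counted in any set. This left out the members *Mrpl46* and *Mrps11*. Their RefSeq starts (chr7:78783089, minus strand, and chr7:78783131, plus strand) point away from each other. Among the counted pairs the starts lay 82 bases apart in the median pair, from 26 to 935, and 17 of 18 pairs were within 250 bases. The member had the higher level per kb in 15 of 18 pairs, with medians of 24.0 CPM per kb for members and 3.55 for partners. For comparison, 77 of the 78 members exceeded the median of all genes with reads and a length, 1.52 CPM per kb. The other 60 members had a median of 18.2 CPM per kb. In average CPM the member was higher in 13 of 18 pairs, and the medians of the 18 members and the other 60 were 29.4 and 29.6, so the head-to-head members stood higher only per kb.

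The partners had varied functions, and the pairs named here were picked after their values were seen. *Mrps12* and *Sars2*, the mitochondrial seryl-tRNA synthetase gene, both serve mitochondrial translation, with starts 172 bases apart and levels of 32.7 and 6.12 CPM per kb. *Mrps27* lay 81 bases from *Ptcd2*, which encodes a mitochondrial RNA-binding protein, at 14.5 and 15.6 CPM per kb. *Mrpl49* faced *Fau*, which encodes a protein of the cytoplasmic ribosome, at 20.8 and 6.74. *Mrpl57* faced the mitotic gene *Ska3* across 49 bases, with 6.51 CPM per kb for *Mrpl57* and 0.0223 for *Ska3*. Along with *Mrps27*, only *Mrpl32* and *Mrpl41* had the lower level of their pair, facing the proteasome gene *Psma2* (6.69 and 17.2 CPM per kb) and the lipase gene *Pnpla7* (26.4 and 34.6).

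**Figure D5:**
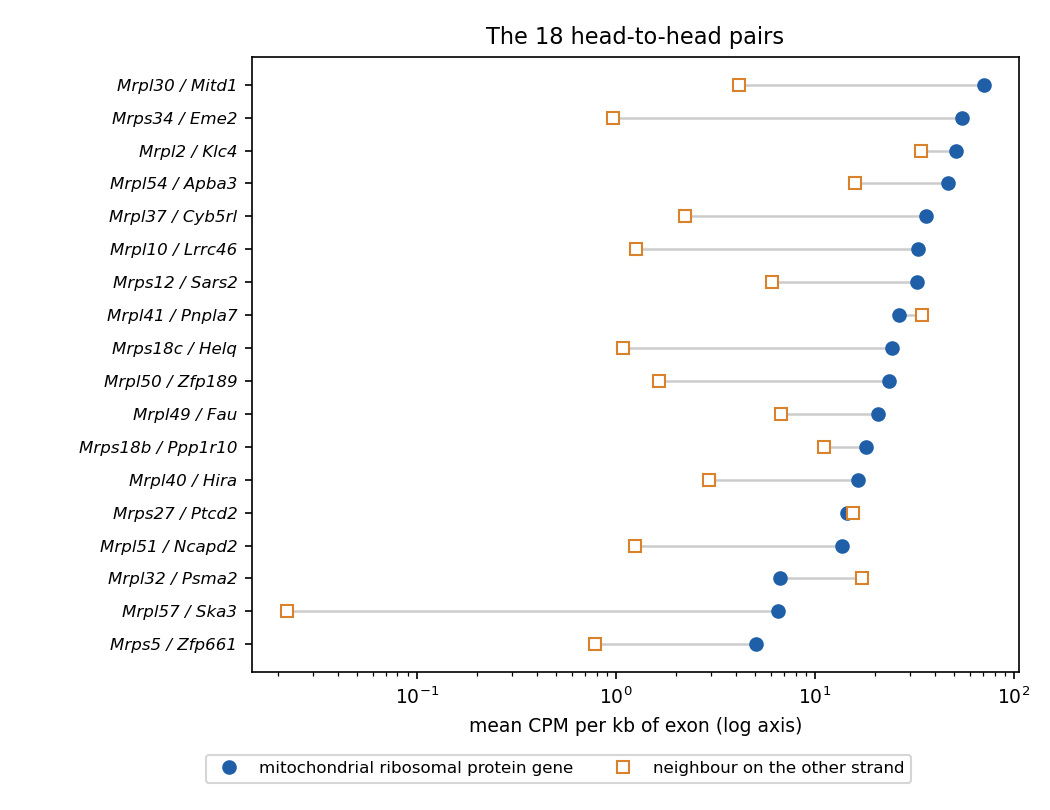
Average level in CPM per kb of exon (log axis) of the 18 members counted as head to head with another protein-coding gene (filled points) and of their neighbours (open squares). The member lies to the right in 15 pairs, and *Mrpl57* and *Ska3* lie furthest apart, at 6.51 and 0.0223.

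The members were spread over the genome. Chromosome 11 held 11 of them (14.1%, against 8.24% of protein-coding genes with reads) and chromosome 17 held 8 (10.3%, against 4.99%). No member lay on chromosomes 12, 18, X or Y.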

How the data were processed

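Stranded poly-A paired-end libraries of 8 mouse livers were sequenced on a NovaSeq X Plus. Per the labels and the study's methods, the authors trimmed reads with Trimmomatic, checked them with FastQC, aligned them to GRCm38/mm10 with STAR, counted with featureCounts and compared genotypes with edgeR (versions and counting annotation not given in the sources used here). The deposited table lists an average log2 CPM per gene over all libraries, made by the authors with edgeR, and 4 columns of their own genotype comparison (fold change, F, p-value and FDR), which were not used. Their p-values and fold changes are not reported here.

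The average log2 CPM was converted to CPM by subtracting the level of a gene with no reads (−3.78 on the log2 scale). A prior count of 2, the default of edgeR, was assumed for the authors' values. Under it 99.9% of 2378 genes with 1 to 5 reads in all came within 0.1 of a whole read, and the mean effective library size was 27473997. Lengths were exon unions of protein-coding transcripts in GENCODE vM21 basic, coding length and longest transcript being alternatives. Intervals are exact Poisson intervals at 95%, for counting error only. The shared-stretch search was tested on made sequences. The conversion was tested on simulated Poisson counts averaged by the same formula that it inverts. That test therefore does not check how edgeR itself averages the libraries. Analyses used Python 3.11.15, pandas 2.3.3, numpy 2.4.6 and scipy 1.17.1. Named genes were the 5 highest and 5 lowest per kb in each subunit, the *Mrps18* genes, *Mrps36* and the highest and lowest gene of each other list, unless said otherwise. Members and lists were chosen with earlier results of these data known. The shared-stretch, head-to-head and chromosome counts were added after the data had been seen.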

Additional observations from a re-analysis of the deposited data

Results flagged for a closer look

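Reads were also assigned to 4 annotated pseudogenes of members, which are outside the 78 genes and were singled out because their counts exceeded the limit that a count of 0 allows. *Gm13552*, a pseudogene of *Mrps18b*, had 4.49 CPM, or 23.0% of the level of *Mrps18b*, and shared stretches with it. *Gm15760*, also annotated to *Mrps18b*, had 0.325 CPM, *Gm6578*, annotated to *Mrpl32*, had 0.183 CPM and *Gm16523*, annotated to *Mrpl40*, had 0.0365 CPM. Whether these reads came from the pseudogenes or from the members was not tested.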

How the results depend on the processing

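Of 17 alternative settings, 6 left the value within its counting error, 10 moved it and 1 turned its direction. The members' median of 29.6 CPM stayed within this margin under all 3 alternatives tried for it, but these could hardly change it. No member had a pseudogene symbol, and the lowest had 15.9 reads per library. Leaving out pseudogene symbols or asking for at least 1 read per library therefore removed no gene. Leaving the prior count in gave 29.7 CPM. Their median per kb, 18.9, was 19.8 with the longest transcript and 54.0 with coding length. The ratio of large to small subunit, 1.25, was 1.30 with the longest transcript, 1.81 with coding length and 1.21 with genes of at most 10% shared stretches. The ratio of cytoplasmic to mitochondrial genes, 1.42, was 1.49 with the longest transcript, 1.34 with coding length, 1.36 from means of log2 levels, 1.93 from summed CPM and 5.32 with genes of at most 10% shared stretches (65 members, 6 cytoplasmic genes). It reversed to 0.966 when pseudogene and like symbols were kept. The alternatives on shared stretches and summed CPM were chosen after seeing the data. The causes were not tested. No paired analysis was possible because the values used are averages over all 8 libraries. For the same reason the alternatives planned for V227A against wild-type (leaving out replicates, another tool or scaling, no filter) were not run.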
